A study of Rattus norvegicus with 12 samples.

Results

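The lesioned striatum of rats with a unilateral loss of dopamine neurons was compared with the non-lesioned striatum, both after saline. The comparison used 6 of the 12 single-colour arrays of the study, chosen by their labels: 3 arrays of the lesioned side after saline and 3 of the non-lesioned side after saline. All animals were male Wistar rats that had received 6-hydroxydopamine (6-OHDA), a toxin taken up by dopamine neurons, in the left medial forebrain bundle. After 2 to 3 weeks they were challenged with 3 mg/kg methamphetamine, and rats turning at least 7 times per minute were kept. Saline injections into the peritoneum began 7 days later and were given daily for 7 days. The non-lesioned group is therefore the other hemisphere of lesioned, drug-screened rats and not an unoperated striatum. The labels assign 3 animals to a group but do not say whether both sides came from the same rats, and age is not given in the sources used here. P-values below set a group difference against the spread between arrays within groups, pooled over all 12 arrays, with the sides treated as unpaired. The other 6 arrays, from the lesioned side after L-DOPA alone or with zonisamide, entered the fit to estimate the spread and are not described.

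The striatum receives dense dopamine input from the midbrain through the medial forebrain bundle. Its output neurons, the medium spiny neurons, fall into a direct-pathway class that carries the D1 receptor, substance P and dynorphin, and an indirect-pathway class that carries the D2 receptor, an adenosine receptor (Adora2a) and enkephalin. Dopamine raises signalling in the first through a stimulatory G protein and lowers it in the second, and the peptides of both classes are long-used readouts of dopamine tone.

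A level below is the log2 processed signal of a probe relative to the 75th percentile of its array, and a log2 change is the mean level of the lesioned side minus that of the non-lesioned side, with limma's moderated standard error (SE, n = 3 arrays per group). Levels of different genes come from different probes and are not compared with each other. The 75th percentile lay between 1062 and 1481 intensity units, 69.9% to 74.0% of probes were well above background, and levels of any 2 of the 6 arrays correlated at 0.941 to 0.984. The coefficient of variation (CV) of replicate spots separated the groups, with 21.8% to 22.6% on the non-lesioned arrays against 15.7%, 10.2% and 3.74% on lesioned arrays 1, 2 and 3. The extraction software rated lesioned array 3 as in range and marked every other saline array for evaluation. Only slide 1 held arrays of both groups, namely array 1 of each. Non-lesioned array 3 and lesioned array 3 were each the only array of the study on their slide. Where slide is used as a fixed block below, also called slide as a block, both of these arrays add nothing to the group difference. The 13 tested markers common to both spiny neuron classes had summed levels that overlapped between the groups. These were 8.21 to 8.70 on the non-lesioned and 8.32 to 8.66 on the lesioned arrays. Such a sum is weighted towards the brightest genes and does not measure neuron content.

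**Figure D1:**
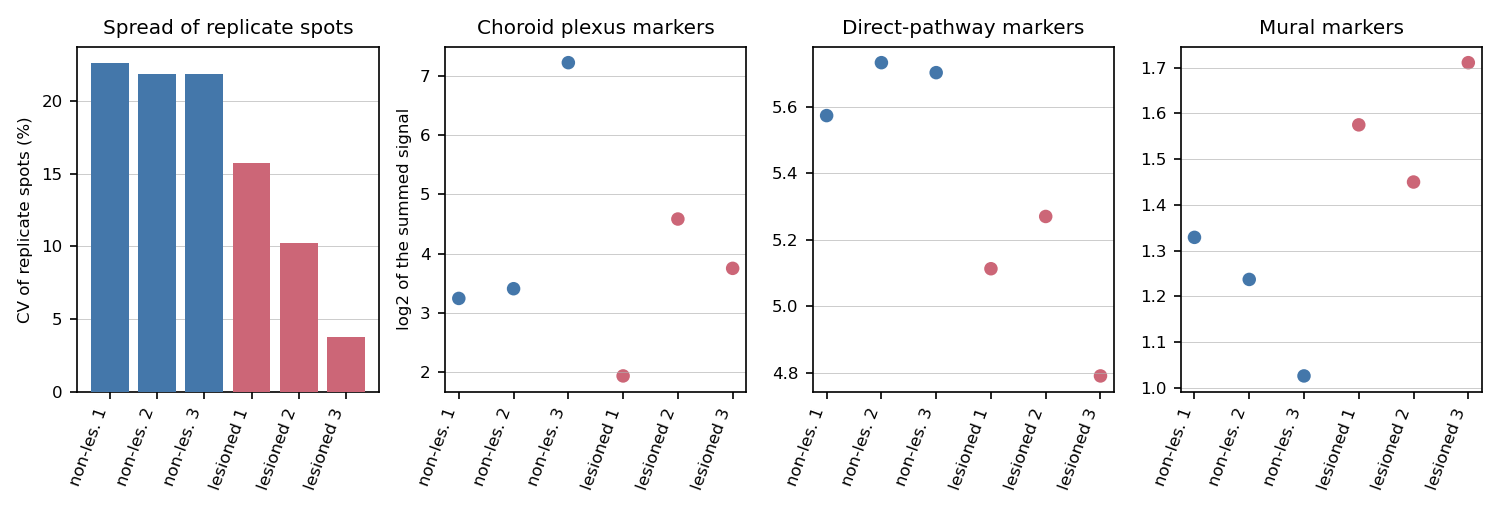
The 6 arrays one by one: the CV of replicate spots in percent (bars), and the log2 summed signal of the choroid plexus, direct-pathway and mural marker lists (points, axes not starting at 0). Non-lesioned arrays are blue and lesioned arrays red. Non-lesioned array 3 stands apart in the choroid plexus list (7.23 against 3.24 and 3.41), while the summed direct-pathway and mural signals separate the groups. A sum is weighted towards the brightest genes of a list. The median level of the direct-pathway list overlapped, at -1.07 to -0.785 on the non-lesioned and -1.02 to -0.682 on the lesioned arrays.

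Markers of the choroid plexus, the ventricular tissue that secretes cerebrospinal fluid, showed that 1 array stood apart. Ttr (transthyretin), the most abundant transcript of that tissue, had levels of 2.32, 3.05 and 6.73 on non-lesioned arrays 1, 2 and 3, and of -0.74, 4.35 and 3.30 on lesioned arrays 1, 2 and 3. The groups overlapped, and non-lesioned array 3 was the highest of the 6. All 8 tested choroid plexus markers were lower on the lesioned side, with a median log2 change of -1.43, none at an unadjusted p under 0.05. Without non-lesioned array 3 the median was 0.149, with 6 of the 8 higher. Sostdc1 and Aqp1 changed sign without this array. With slide as a block, which also takes this array out of the group difference, Sostdc1, Aqp1 and Kcne2 changed sign.

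No feature passed at an adjusted p under 0.05 (0% of 19109 features, of which 10927 had a gene symbol; limma with Benjamini-Hochberg adjustment). At an unadjusted p under 0.05, 1226 features were higher on the lesioned side (6.42% of those tested) and 418 were lower (2.19%). The 3 arrays of a group all lay above those of the other for 1685 features that were higher on the lesioned side (8.82%) and 1611 that were lower (8.43%). The median log2 change over all features was 0.0442. Because nothing passed, genes below are described as higher or lower by their values and not as changed.

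The surplus of higher features was greatest among dim probes. Features were split by mean level into 4 brightness classes of equal size. In the dimmest class the median log2 change was 0.204, and 551 features were higher against 65 lower at an unadjusted p under 0.05. In the brightest class the median was -0.0137, with 194 higher against 125 lower at that p. Counted by groups that did not overlap, the dimmest class had 645 higher against 181 lower and the brightest 299 higher against 594 lower. Under quantile normalization the split over all features turned to 711 higher and 1039 lower, with a median of -0.0917. With normexp background correction and quantile normalization it was 637 higher and 1097 lower, with a median of -0.0832. The normexp setting adds an offset of 50 intensity units to the signals, which by itself shrinks log2 changes of dim probes. Below, normexp always stands for this setting together with quantile normalization. The part of the scaling, of this offset, and of the difference in replicate-spot CV between the groups, in the changes of single dim genes was not tested.

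**Figure D2:**
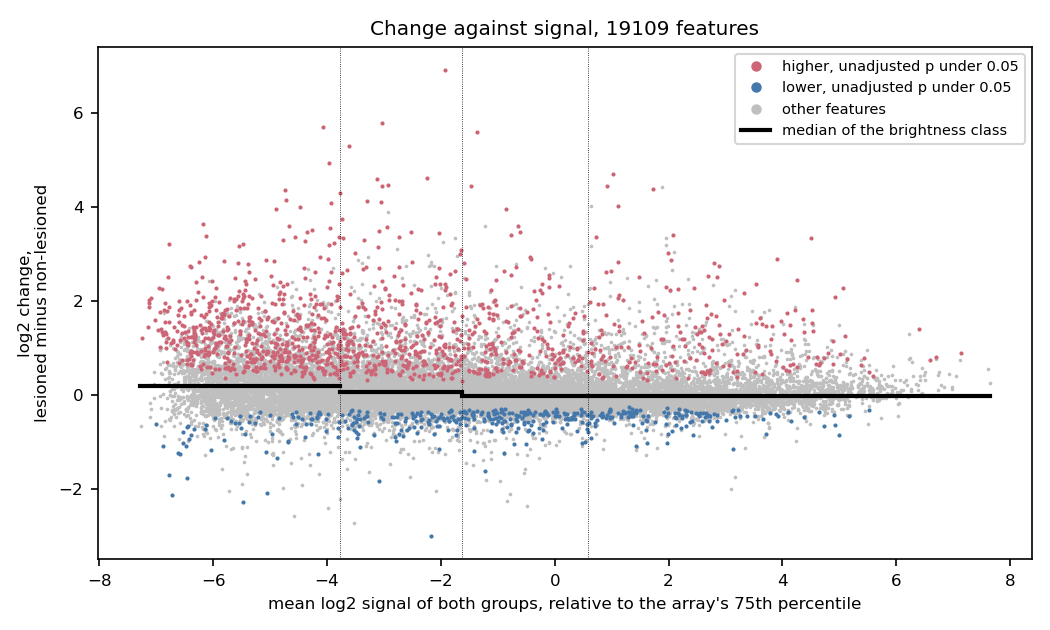
Log2 change (lesioned minus non-lesioned) of the 19109 features against their mean level in both groups, with features at an unadjusted p under 0.05 in red (higher) or blue (lower). Black bars give the median of each of the 4 brightness classes, from 0.204 in the dimmest to -0.0137 in the brightest, and dotted lines mark their borders.

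Markers of direct-pathway neurons were lower on the lesioned side. Of the 10 on the list 9 were tested, 8 of them were lower, and the arrays of the groups did not overlap for 7 (Tac1, Pdyn, Isl1, Ebf1, Drd1, Chrm4 and Slc35d3), against 8.43% of all features. The median log2 change of the list was -0.49, against 0.0442 over all features, and within slide 1 it was -0.375 against -0.027. At an unadjusted p under 0.05 there were 4 lower members, against 2.19% of all features.

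Tac1, the precursor of substance P and neurokinin A, had levels of 4.91, 5.15 and 5.13 on the non-lesioned arrays and 4.53, 4.62 and 4.06 on the lesioned arrays. Every lesioned array was below every non-lesioned one, and lesioned array 3 was the lowest. Its log2 change was -0.66 ± 0.24 (SE, adjusted p = 0.536), and a further Tac1 probe gave -0.98. Pdyn, the precursor of the dynorphins, had levels of 2.98, 3.16 and 3.18 on the non-lesioned side and 2.48, 2.78 and 2.03 on the lesioned side, again without overlap and lowest on lesioned array 3. The log2 change of Pdyn was -0.68 ± 0.22 (SE, adjusted p = 0.49). Slide as a block moved it to -0.358.

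Isl1, a transcription factor needed for the identity of direct-pathway neurons, had levels of -1.36, -1.08 and -1.36 on the non-lesioned arrays and -1.71, -1.74 and -1.89 on the lesioned arrays. The arrays within each group lay close together and the groups did not overlap, with a log2 change of -0.51 ± 0.15 (SE, adjusted p = 0.476). Ebf1, a transcription factor of the same neurons, had levels of -4.18, -4.35 and -4.04 against -4.54, -4.58 and -4.94, a log2 change of -0.50 ± 0.16 (SE, adjusted p = 0.49). It lay in the dimmest brightness class, whose median was above 0.

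Among the receptors of these cells, Drd1 (the D1 dopamine receptor) had levels of -0.79, -1.36 and -1.14 on the non-lesioned side and -1.52, -1.40 and -1.68 on the lesioned side. The gap between the groups was narrow, since non-lesioned array 2 and lesioned array 2 were nearly level, and the log2 change was -0.44 ± 0.20 (SE, adjusted p = 0.58). With normexp background correction it was -0.0122. Chrm4, the muscarinic M4 receptor that opposes D1 signalling, had levels of 2.41, 2.25 and 2.01 against 1.40, 1.84 and 1.95, a log2 change of -0.49 ± 0.33. Its values on non-lesioned array 3 and lesioned array 3 were nearly level. Slc35d3, a transporter-like protein known for its part in D1 receptor trafficking, had a log2 change of -0.43 ± 0.30, or -0.074 with normexp. A further Slc35d3 probe gave -0.16. Sfxn1, a mitochondrial serine transporter, had a log2 change of -0.08 ± 0.47, or 0.0403 without non-lesioned array 3. Zfp521, a zinc finger factor, was the single tested member with a value above 0, at 0.12 ± 0.27, or 0.0427 without non-lesioned array 3. Without lesioned array 3 the list median was -0.37 and 2 members were lower at an unadjusted p under 0.05, and with slide as a fixed block there were 0. In bulk tissue fewer cells of a type and less RNA per cell cannot be told apart.

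Among indirect-pathway markers the enkephalin precursor was higher, while the D2 receptor and the adenosine receptor were near 0. Of 6 tested members 5 were higher, with a median log2 change of 0.306. The arrays of the groups did not overlap for 3 (Penk, Ttc12 and Grik3), all higher, against 8.82% of all features. Only Penk had an unadjusted p under 0.05, while 6.42% of all features were higher at that p. Without non-lesioned array 3 the list had 3 higher and 3 lower members and a median of 0.0905, and with normexp the median was 0.0764. Penk, the enkephalin precursor, had levels of 4.51, 4.28 and 4.16 on the non-lesioned arrays and 5.0, 4.81 and 5.19 on the lesioned arrays. All lesioned arrays lay above the non-lesioned ones, a 1.61-fold difference with a log2 change of 0.69 ± 0.21 (SE, adjusted p = 0.49). Drd2 (the D2 dopamine receptor) had levels of 4.95, 4.50 and 4.19 against 4.75, 4.71 and 4.62, a log2 change of 0.15 ± 0.21, and a further probe gave -0.13. Adora2a (the adenosine receptor of these cells) had levels of 2.78, 2.17 and 2.21 against 2.37, 2.41 and 2.55, a log2 change of 0.06 ± 0.22. For both receptors the lesioned arrays fell within the range of the non-lesioned arrays, and the sign turned without non-lesioned array 3. Gpr6, a constitutively active receptor of these neurons, had a value of -0.15 ± 0.31, and Grik3, a kainate receptor subunit, one of 0.46 ± 0.29, or 0.213 without non-lesioned array 3. Without that array the value of Gpr6 was -0.0776.

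Ttc12, which lies beside the D2 receptor gene, had the largest value of the list. Its levels were -3.48, -3.75 and -1.70 on the non-lesioned side and -1.28, -0.96 and -1.36 on the lesioned side. Non-lesioned array 3 was nearer to the lesioned arrays than to its own group, and the log2 change was 1.77 ± 0.82 (SE, adjusted p = 0.58).

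**Figure D3:**
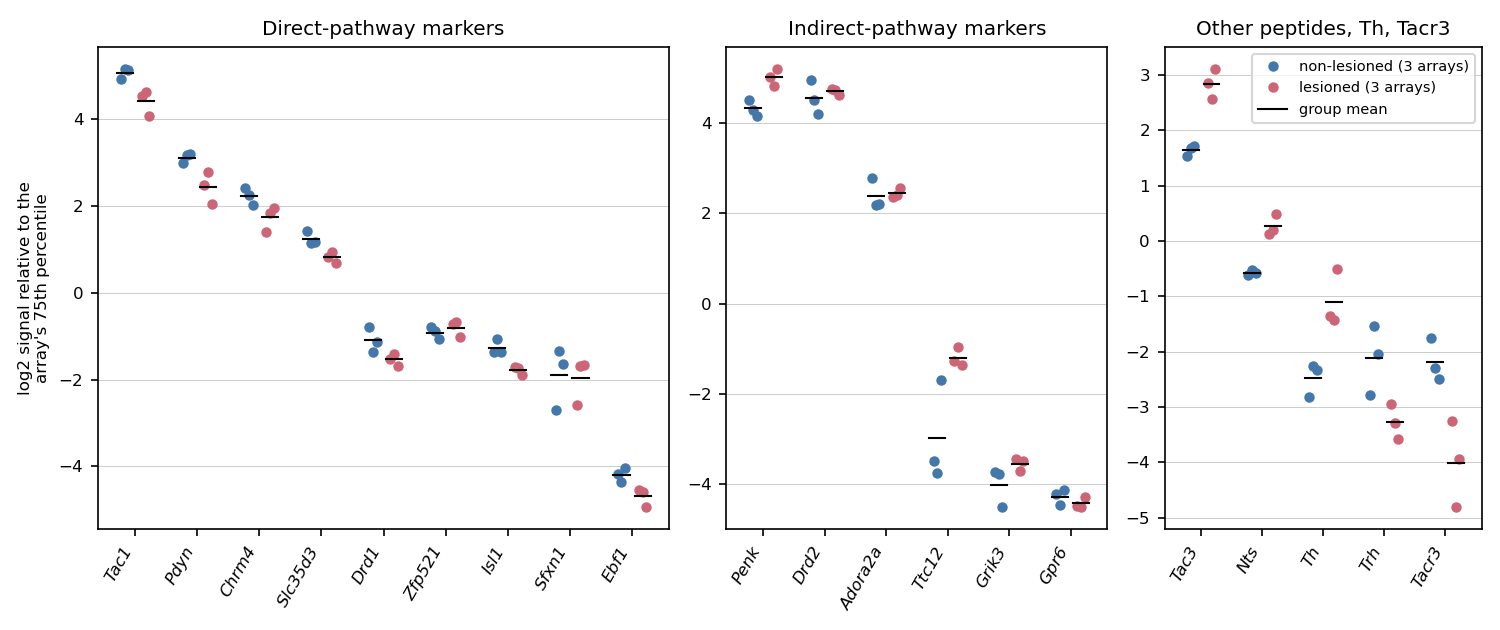
Levels (log2 signal relative to the array's 75th percentile) of the tested direct-pathway and indirect-pathway markers and of other peptide-system genes, 1 point per array, with black bars for the means of 3 arrays. Tac1, Pdyn, Isl1 and Ebf1 are lower and Penk, Tac3, Nts and Th higher on all 3 lesioned arrays, while Drd2 and Adora2a overlap.

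Neuropeptide precursors diverged. Of 18 tested, 10 were higher and 8 lower, with 3 higher (Tac3, Penk, Nts) and 2 lower (Pdyn, Tac1) at an unadjusted p under 0.05, against 6.42% and 2.19% of all features. With slide as a fixed block there were 1 higher and 0 lower at that p, and without lesioned array 3 there were 3 higher and 0 lower. The median log2 change was 0.209, and -0.0409 under quantile normalization. Tac3, the precursor of neurokinin B, had levels of 1.53, 1.69 and 1.71 on the non-lesioned arrays and 2.85, 2.57 and 3.11 on the lesioned arrays. The gap between the groups was wider than the spread within either, and the log2 change was 1.20 ± 0.33 (SE, adjusted p = 0.457), a 2.30-fold difference. Nts, the neurotensin precursor, had levels of -0.61, -0.52 and -0.57 against 0.13, 0.20 and 0.48. Its non-lesioned arrays were almost level and all below the lesioned ones, with a log2 change of 0.84 ± 0.27 (SE, adjusted p = 0.49). Trh, the precursor of thyrotropin-releasing hormone, had levels of -2.78, -1.54 and -2.03 against -2.95, -3.29 and -3.57. These did not overlap either, but the wide spread left a log2 change of -1.15 ± 0.70.

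Tacr3, the receptor for neurokinin B, was lower where its ligand was higher. Its levels were -1.76, -2.30 and -2.49 on the non-lesioned arrays and -3.26, -4.81 and -3.94 on the lesioned arrays, all above background. The groups did not overlap, and the log2 change was -1.82 ± 0.52 (SE, adjusted p = 0.476). Across 19 alternatives it ran from -2.25 to -1.42. Tacr1, the substance P receptor, had a log2 change of 0.28 ± 0.21, or 0.117 without non-lesioned array 3, and its groups overlapped.

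Upstream sequences of the peptide and dopamine-synthesis genes with opposite values are shown because their regulation by cyclic AMP signalling, the pathway on which D1 and D2 receptors act, is well studied. Of the 6 genes looked up (Tac1, Pdyn, Penk, Tac3, Nts and Th), 4 matched an entry of RefSeq's promoter windows on build GRCr8. The 250 bases before the annotated start are printed 5′ to 3′ on the gene's strand. Capitals mark TGACG or its reverse complement (the core of a cyclic AMP response element, CRE), TGACGTCA (the full CRE, which contains both cores), TGAGTCA or its reverse complement (an AP-1 site) and TATAAA or its reverse complement (a TATA box).
Tac1 (chr4:36645333-36645582, plus strand): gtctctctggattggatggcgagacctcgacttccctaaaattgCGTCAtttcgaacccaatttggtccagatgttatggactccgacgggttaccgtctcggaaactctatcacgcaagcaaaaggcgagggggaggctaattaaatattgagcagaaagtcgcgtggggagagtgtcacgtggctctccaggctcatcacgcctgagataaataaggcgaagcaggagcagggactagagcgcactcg
Pdyn (chr3:137366504-137366753, minus strand): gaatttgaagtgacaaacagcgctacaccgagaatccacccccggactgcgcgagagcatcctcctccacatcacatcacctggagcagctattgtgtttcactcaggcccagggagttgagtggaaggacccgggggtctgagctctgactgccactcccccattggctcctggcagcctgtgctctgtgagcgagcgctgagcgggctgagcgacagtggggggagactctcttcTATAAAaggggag
Nts (chr7:39460889-39461138, minus strand): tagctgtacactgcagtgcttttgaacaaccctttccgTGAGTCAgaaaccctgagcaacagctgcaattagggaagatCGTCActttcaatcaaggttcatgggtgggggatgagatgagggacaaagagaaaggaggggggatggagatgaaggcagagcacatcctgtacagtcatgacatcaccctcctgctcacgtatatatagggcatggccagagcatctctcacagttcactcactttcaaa
Th (chr1:207508219-207508468, minus strand): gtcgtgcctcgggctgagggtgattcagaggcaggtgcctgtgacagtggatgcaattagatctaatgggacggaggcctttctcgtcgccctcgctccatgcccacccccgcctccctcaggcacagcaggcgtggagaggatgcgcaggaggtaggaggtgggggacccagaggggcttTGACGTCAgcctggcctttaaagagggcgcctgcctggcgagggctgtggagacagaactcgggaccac
Th held the full CRE, which starts 69 bases before the annotated start. This motif was present in 1.59% of the 33469 windows of this length. Tac1 and Nts each held 1 core, starting 206 and 171 bases before the start, and 18.2% of all windows held a core. Nts also held the AP-1 motif, found in 4.05% of windows, and Pdyn held only the TATA box, found in 12.9%. Tac1 and Nts, with a core each, had log2 changes of opposite sign. These matches describe letters and do not show binding.

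Th, which encodes tyrosine hydroxylase, the rate-limiting enzyme of dopamine synthesis, was higher on the lesioned side. Its levels were -2.82, -2.25 and -2.33 on the non-lesioned arrays and -1.36, -1.43 and -0.51 on the lesioned arrays, all above background. The lesioned arrays lay above every non-lesioned one, with lesioned array 3 the highest, and the log2 change was 1.37 ± 0.31 (SE, adjusted p = 0.302), a 2.58-fold difference. Of the 10 tested genes of dopamine synthesis, transport and breakdown 7 were higher, with a median log2 change of 0.135. Only Th had an unadjusted p under 0.05, while 6.42% of all features were higher at that p. With normexp 2 were higher and 8 lower, with a median of -0.107, and without non-lesioned array 3 the median was 0.0588. Ddc, the decarboxylase that follows Th, had a value of 0.22 ± 0.29 and Slc18a2, the vesicular monoamine transporter, one of 0.11 ± 0.15, and without non-lesioned array 3 these were 0.0849 and 0.0404. Slc6a3, the dopamine transporter, was not well above background on any of the 6 arrays and was not tested, so its RNA gave no check of the lesion. Of the other dopamine receptors, Drd5 had a log2 change of 0.33 ± 0.24. Drd3 was not well above background on any array, and Drd4 was on 1 array of each group.

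The 14 genes described here from the 15 with the smallest p were all higher on the lesioned side, with log2 changes from 1.27 to 4.93 and adjusted p between 0.125 and 0.23. Of these, 8 lay in the dimmest brightness class, and 9 were above background on all 6 arrays. With normexp background correction and quantile normalization all 14 were still above 0, but their median went from 1.59 to 0.735 and the smallest value, that of Bpifb1, to 0.13. Igsf7 l1, an immunoglobulin superfamily gene with the smallest p, had levels of -6.22, -5.43 and -5.72 on the non-lesioned arrays and -3.71, -3.71 and -3.82 on the lesioned arrays. The groups were far apart, with a log2 change of 2.04 ± 0.24 (SE, adjusted p = 0.125), but with normexp it was 0.673.

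Fst (follistatin), a secreted protein that binds and blocks activins, had levels of -0.34, -0.38 and -0.28 on the non-lesioned arrays and 1.55, 1.07 and 1.47 on the lesioned arrays. Its non-lesioned arrays were almost level and the lesioned ones clearly higher, a 3.24-fold difference with a log2 change of 1.70 ± 0.24 (SE, adjusted p = 0.132). Across 19 alternatives the value stayed between 1.48 and 1.98, and the gene was not among the dim ones.

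Activins are growth factors of the TGF-beta family made of inhibin beta chains, with receptors that signal through Smad proteins. Of 13 tested genes of this system 10 were higher and 3 lower, with a median log2 change of 0.219, and 7 were higher under quantile normalization. Inhba, the activin A chain itself, had levels of 1.04, 1.16 and 0.82 against 1.73, 1.34 and 1.64. The groups did not overlap, but the log2 change of 0.56 ± 0.42 had no unadjusted p under 0.05. Fstl3, a relative of follistatin that also binds activin, had a value of 0.80 ± 0.31, which was 0.105 with normexp. Fstl1, which shares the follistatin name but is a distinct glycoprotein, was lower, at -0.43 ± 0.19.

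Serping1, the C1 inhibitor that restrains the first step of the classical complement pathway, had levels of -1.96, -2.37 and -2.46 on the non-lesioned arrays and -0.46, -0.12 and -0.47 on the lesioned arrays. The groups lay far apart relative to their own spread, a 3.77-fold difference with a log2 change of 1.91 ± 0.28 (SE, adjusted p = 0.132). The probes of Alkbh4, an AlkB-family demethylase, disagreed, with a log2 change of 1.27 ± 0.24 for the brighter and 0.10 for the other.

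The remaining genes of this set had mixed roles. Upb1, an enzyme of pyrimidine breakdown, had a log2 change of 1.60 ± 0.28, and Grip2, a scaffold of AMPA-type glutamate receptors, one of 1.48 ± 0.25, or 0.225 with normexp. Spmap2, a sperm microtubule protein, had 1.30 ± 0.20. Slc10a5, of the bile acid transporter family, had 1.58 ± 0.27, Tmem171, a membrane protein, 1.40 ± 0.26, and Cbln3, a cerebellin, 1.53 ± 0.29. Bpifb1, of a family of secreted lipid-binding proteins, had 1.55 ± 0.22. Btnl5, a butyrophilin-like gene, and Ttc22 were not well above background on any non-lesioned array and were at least 10.2-fold and at least 3.98-fold higher on the lesioned side.

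**Figure D4:**
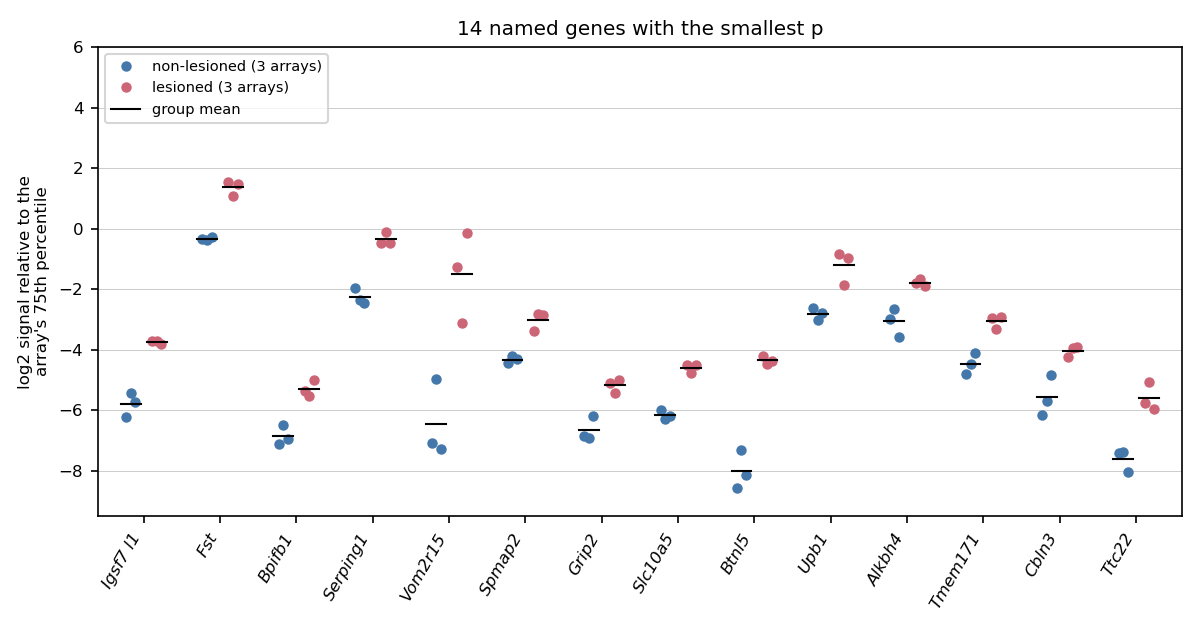
Levels (log2 signal relative to the array's 75th percentile) of 14 of the genes with the smallest p, ordered by p from left to right, 1 point per array with black bars for the means of 3 arrays. All 3 lesioned arrays lie above all 3 non-lesioned arrays for each gene, and 8 of the 14 are in the dimmest brightness class.

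The 12 largest values above 0, among 405 named genes that were higher without overlap at an unadjusted p under 0.05, were log2 changes from 2.45 to 5.71, and 5 of the 12 genes were above background on all 6 arrays. The only tested probe of Cox7c, a subunit of cytochrome c oxidase, was not above background on the non-lesioned arrays (levels -7.51 and -6.33, with no value on array 3). It had levels of -1.48, -3.23 and 1.08 on the lesioned arrays, at least 52.5-fold higher over the arrays with a value. With no further probe tested, this describes the probe and does not show that the gene is silent in the non-lesioned striatum. The lesioned arrays differed widely among themselves. Vom2r15, a vomeronasal receptor gene, had levels of -7.08, -4.97 and -7.27 against -1.26, -3.10 and -0.16, a fitted log2 change of 4.93 ± 0.74 (SE, adjusted p = 0.132). It was above background on 1 non-lesioned array, so the signals of the other 2 are only bounds and the size of the fitted value is uncertain, as it is for Lpal2, Qrich1 and Phf8 below.

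Other genes of this set differed in their spread. Ensa, an inhibitor of the phosphatase PP2A, had levels of -2.99, -3.27 and -2.96 against -0.32, -0.82 and -0.13, a log2 change of 2.65 ± 0.56. All 6 Ensa values were above background and the groups were well apart. Kctd11, an adaptor of a ubiquitin ligase, had a value of 2.73 ± 0.67. Lpal2, a lipoprotein(a)-like gene, had a fitted value of 4.14 ± 1.04, and Qrich1, a transcriptional regulator, 3.51 ± 0.95, each above background on 1 non-lesioned array. Krt17, a keratin, was at least 5.69-fold higher, with no non-lesioned array above background.

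Several of the large values depended on single arrays or on the probe. Phf8, a histone demethylase above background on 1 non-lesioned array, had a fitted value of 4.12 ± 1.45, while a further probe gave -0.21. Without lesioned array 1 or 3 a further probe stood for the gene, and the values were -0.249 and -0.0809. Lin28a, an RNA-binding regulator of let-7, had 2.62 ± 1.13 and went to 0.351 with slide as a block. Ost4, a subunit of the oligosaccharyltransferase, had 2.49 ± 1.08 and was 1.48 without non-lesioned array 3. Treml2, a receptor of the TREM family, had levels of -4.82, -0.71 and -1.24 against 0.04, -0.09 and 0.66, and its value of 2.45 ± 0.91 was 1.17 without non-lesioned array 1.

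The 12 lowest values were log2 changes from -2.13 to -1.02. They were taken among 270 named genes that were lower without overlap at an unadjusted p under 0.05. Of these 12 genes, 7 lay in the dimmest brightness class. Grin3b, an NMDA receptor subunit, had levels of -5.87, -5.98 and -5.11 on the non-lesioned arrays and was not well above background on any lesioned array, at least 3.30-fold lower. Rxfp3, the relaxin-3 receptor, had levels of -3.90, -4.27 and -3.89 against -5.61, -4.90 and -7.79, with 2 of 3 lesioned arrays above background. Its log2 change of -2.08 ± 0.84 was -1.23 without lesioned array 3, the lowest one. Gpr139, a receptor activated by aromatic amino acids, had levels of -5.65, -5.67 and -5.39 against -7.18, -6.72 and -8.11, a log2 change of -1.77 ± 0.39 (SE, adjusted p = 0.302), with 1 lesioned array above background. Tacr3, given above, also belongs to this set. With normexp the values of Grin3b and Gpr139 were -0.332 and -0.369.

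The other 8 genes had mixed roles. Adamtsl5, an ADAMTS-like matrix protein, was at least 2.56-fold lower, with no lesioned array above background. Pcdhb6, a clustered protocadherin, had a log2 change of -1.32 ± 0.51, Reg3a, a secreted lectin, -1.25 ± 0.52, and Plagl1, an imprinted zinc finger factor, -1.20 ± 0.43. Cdr2, a cytoplasmic protein known as an antigen of paraneoplastic cerebellar degeneration, had -1.02 ± 0.37 and was -0.657 without non-lesioned array 3. Eci3, an enoyl-CoA isomerase, had -1.61 ± 0.68 and was -0.622 without lesioned array 1, where its level was -4.00 against -1.03 and -1.04. Lpgat1, a lysophospholipid acyltransferase, had -1.02 ± 0.46, was -0.41 without the same array, and a further probe gave 0.65. Prps1, an enzyme of nucleotide synthesis, had -1.14 ± 0.45, with a further probe at -0.17.

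Complement proteins tag cells and synapses for removal, and their genes were mostly higher on the lesioned side. Of 18 tested, 15 were higher and 3 lower, 6 were higher at an unadjusted p under 0.05 against 6.42% of all features, and the median log2 change was 0.36, or 0.268 within slide 1. With slide as a fixed block 1 member had an unadjusted p under 0.05. Under quantile normalization 12 were higher and 6 lower, with a median of 0.181 against -0.0917 over all features, and with normexp the median was 0.0454. C1qb, a chain of the C1q recognition molecule, had levels of 0.82, 1.89 and 1.19 against 3.02, 2.83 and 3.28. The groups did not overlap, with a log2 change of 1.74 ± 0.54 (SE, adjusted p = 0.49). Of the other C1q chains, named after their values were seen, C1qa had a value of 0.26 ± 0.17. C1qc had one of 0.05 ± 0.24, whose sign turned under quantile normalization (-0.068), with normexp (-0.0222) and without non-lesioned array 3 (-0.193). C2, the protease that C1 cleaves, had a value of 0.90 ± 0.26, and a further probe gave 1.36. C4a, a complement C4 gene whose signal may include near-identical copies, had 0.66 ± 0.22, and 0.28 with slide as a block.

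Microglia markers had small values above 0. This held for all 14 tested members, against 55.4% of all features, with a median log2 change of 0.167, or 0.0913 and 11 of 14 without non-lesioned array 3. At an unadjusted p under 0.05 there was 1 member, a share close to the 6.42% of all features. Under normexp with quantile normalization 7 were higher and 7 lower, with a median of 0.0259 against -0.0832 over all features. The member with an unadjusted p under 0.05 was Cd68, a lysosomal protein of phagocytes, with levels of -3.03, -4.93 and -4.89 against -3.18, -2.80 and -2.54. Non-lesioned array 1 lay within the lesioned range, and the log2 change was 1.44 ± 0.56, or 0.393 with slide as a block. Csf1r, the receptor that sustains microglia, had a value of 0.52 ± 0.34, and a further probe gave 0.01. The summed level of the microglia list was 5.21 to 5.46 on the non-lesioned and 5.39 to 5.67 on the lesioned arrays, which overlapped.

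Astrocyte markers had no common direction, with 5 of 11 higher and a median log2 change of -0.0302. Of the 15 tested genes linked to reactive astrocytes 10 were higher, with a median of 0.195, and 4 were higher at an unadjusted p under 0.05, against 6.42% of all features. That count was 1 under quantile normalization, with normexp or without lesioned array 1, and 2 without lesioned array 3 or without non-lesioned array 1 or 3. Those 4 were Serping1, Ptx3 (a pentraxin, 0.87 ± 0.31), Tgm1 (a transglutaminase, 0.68 ± 0.25) and Srgn (the proteoglycan serglycin, 0.42 ± 0.17). With normexp Ptx3 and Tgm1 were at 0.102 and 0.0718. Gfap, the filament protein most used as a sign of astrocyte reaction and named here after its values were seen, had levels of -0.44, -1.47 and -2.47 against -2.05, -0.31 and -1.36. The groups overlapped, with a log2 change of 0.22 ± 0.75, and its sign turned in 4 alternatives.

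**Figure D5:**
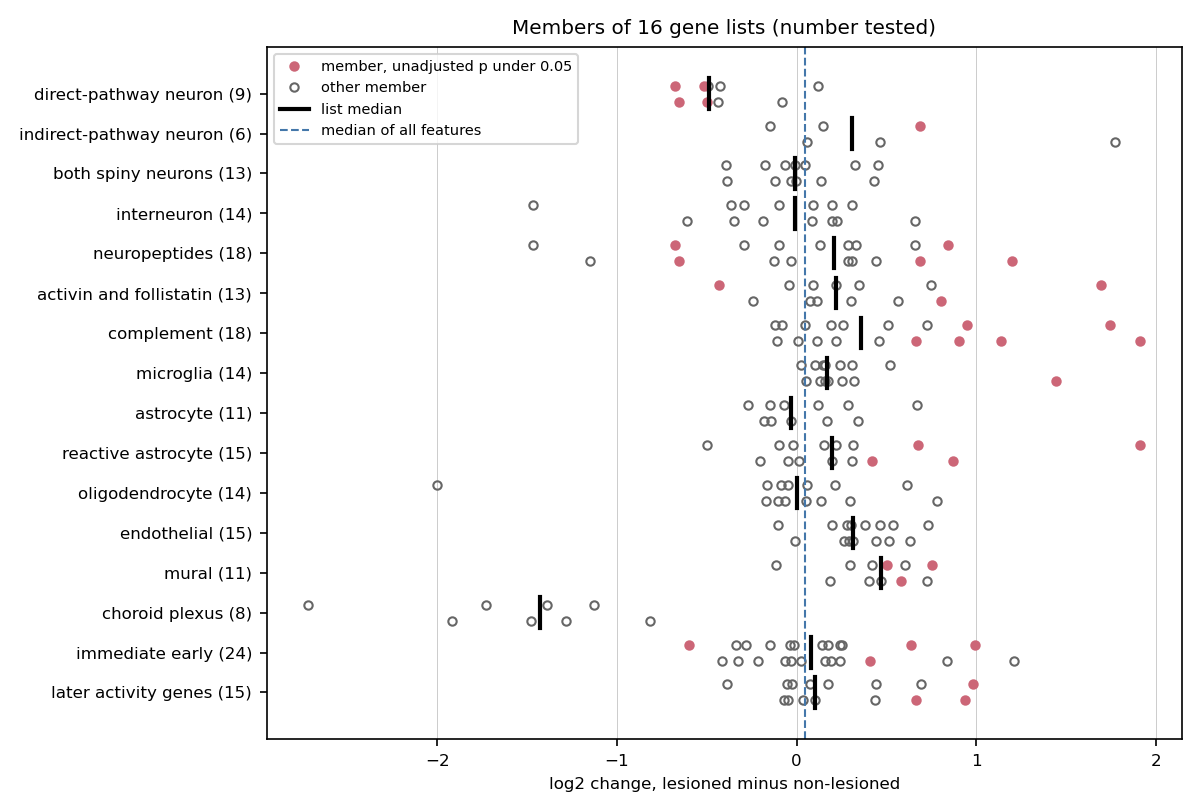
Log2 changes (lesioned minus non-lesioned) of the tested members of 16 gene lists, 1 point per gene, red where the unadjusted p is under 0.05. Black bars are list medians and the dashed line is the median of all features, 0.0442; the direct-pathway median is -0.49, the mural median 0.468 and the choroid plexus median -1.43.

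Most genes of vessel wall cells had values above 0. Of 11 tested mural cell genes (pericytes and smooth muscle) 10 were higher, 3 of them at an unadjusted p under 0.05 against 6.42% of all features, and the median log2 change was 0.468, or 0.401 within slide 1. With slide as a fixed block 1 member was higher at that p. The summed level of this list was 1.33, 1.24 and 1.03 on the non-lesioned arrays and 1.58, 1.45 and 1.71 on the lesioned arrays, without overlap. Under quantile normalization the median was 0.255, and with normexp it was 0.115 and no member had an unadjusted p under 0.05.

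Myl9, a regulatory light chain of smooth muscle myosin, had levels of -1.73, -1.91 and -1.31 against -0.81, -1.04 and -0.83. The groups did not overlap, with a log2 change of 0.76 ± 0.20 (SE, adjusted p = 0.456). Rgs5, a pericyte regulator of G protein signalling, had levels of -1.01, -1.54 and -1.39 against -0.61, -0.95 and -0.64, a log2 change of 0.58 ± 0.20 (SE, adjusted p = 0.504). Acta2, smooth muscle actin, had a value of 0.51 ± 0.20, and Myh11, smooth muscle myosin, one of 0.40 ± 0.23, or 0.176 without non-lesioned array 3, whose groups overlapped. Of 15 endothelial genes 13 were higher, with a median of 0.313, or 0.183 without non-lesioned array 3, and none at an unadjusted p under 0.05. Among them Slc2a1, the glucose transporter of the blood-brain barrier, had levels of 2.32, 2.25 and 1.96 against 2.51, 2.35 and 2.46, a log2 change of 0.26 ± 0.15, or 0.153 without non-lesioned array 3. Tek, an angiopoietin receptor in the dimmest brightness class, had a value of 0.54 ± 0.25 with overlapping groups, which was 0.01 with normexp, 0.206 with slide as a block and 0.25 without non-lesioned array 3.

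Matrix and fibroblast lists had no common direction. At an unadjusted p under 0.05, 1 of 15 matrix and 1 of 10 fibroblast genes was higher, against 6.42% of all features. These single genes therefore do not set the lists apart. Fn1 (fibronectin) had levels of -2.51, -1.40 and -2.58 against 0.16, -0.94 and -0.88, a log2 change of 1.61 ± 0.44 (SE, adjusted p = 0.457), and a further probe gave 0.55. Col1a2, a chain of type I collagen, had levels of -1.36, -2.34 and -1.93 against -0.48, -1.25 and 0.08, a log2 change of 1.33 ± 0.50, or 0.568 with slide as a block. For both genes all lesioned arrays lay above the non-lesioned ones. The summed level of the fibroblast list was highest on non-lesioned array 3 (4.41 against 2.12 to 2.74 on the other 5).

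Genes induced by neuronal activity were mixed. Of 24 tested immediate early genes 13 were higher, with a median log2 change of 0.0815, or -0.0794 under quantile normalization and -0.0537 with normexp. At an unadjusted p under 0.05 there were 3 higher and 1 lower, against 6.42% and 2.19% of all features. The higher count was 1 under quantile normalization, with slide as a fixed block or without non-lesioned array 3. These 4 were the Krüppel-like factors Klf2 (0.64 ± 0.19), Klf10 (0.99 ± 0.34) and Klf4 (0.41 ± 0.16), which were higher (with overlapping arrays for Klf4), and Dusp6, a phosphatase that ends ERK signalling, which was lower. Dusp6 had levels of 0.96, 0.92 and 1.13 against 0.46, 0.54 and 0.22, a log2 change of -0.60 ± 0.21 (SE, adjusted p = 0.504). The groups were well apart. Klf10 went to 0.35 with slide as a block and Klf2 to 0.161 with normexp.

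Of 15 later activity genes 10 were higher, with a median log2 change of 0.104 and 3 at an unadjusted p under 0.05, against 6.42% of all features. With normexp 0 were higher at that p. Pcsk1, a protease that processes peptide precursors, had levels of -2.83, -2.92 and -2.99 against -2.01, -2.38 and -2.36, a log2 change of 0.66 ± 0.19 (SE, adjusted p = 0.481), or 0.242 with normexp. Nptx1 and Nptx2, pentraxins that cluster glutamate receptors, had values of 0.98 ± 0.29 and 0.94 ± 0.34, and the groups did not overlap for any of the 3. Rgs4, a regulator of G protein signalling, had levels of 3.02, 2.93 and 2.82 against 2.42, 2.63 and 2.56, all lower, and a log2 change of -0.39 ± 0.18.

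Nptx1 also stands on the list of cortical neuron markers. Of 5 tested cortical markers 4 were higher, with a median log2 change of 0.98, or 0.326 with normexp. Neurod2, a factor of cortical excitatory neurons, had levels of -5.72, -5.62 and -6.74 against -4.01, -2.92 and -5.85, and Neurod6, a relative above background on 1 non-lesioned array, -6.39, -6.35 and -6.94 against -5.56, -4.04 and -6.27. Lesioned array 2 was the highest for both. Fezf2, a factor of deep-layer cortical neurons, had a value of 0.47 ± 0.35. Slc17a7, the vesicular glutamate transporter that defines these cells, was not well above background on any non-lesioned array and was on 1 lesioned array. The summed level of the list was -0.53, 0.24 and 0.40 against 0.20, 0.59 and 0.30, which overlapped; its part in the value of Nptx1 was not tested.

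Among transmitter genes, Gad1, which encodes the GABA-synthesizing enzyme GAD67, had levels of 3.64, 3.94 and 4.58 against 5.01, 4.78 and 4.79. The groups did not overlap, with a log2 change of 0.81 ± 0.26 (SE, adjusted p = 0.49), but a further Gad1 probe gave 0.17. Gad2, the partner enzyme GAD65, had a value of 0.57 ± 0.38, or 0.157 without non-lesioned array 3. Of 19 tested GABA genes 12 were lower, with a median of -0.125 that ran from -0.224 without non-lesioned array 3 to -0.0106 without non-lesioned array 2. Gabrd, the delta subunit of extrasynaptic GABA-A receptors, had levels of 2.81, 3.15 and 2.73 against 2.35, 2.32 and 2.38, a log2 change of -0.55 ± 0.27, or -0.109 with normexp. At an unadjusted p under 0.05, 1 of 9 tested serotonin genes was lower, the receptor Htr1d, against 2.19% of all features. The Htr1d levels of -1.57, -1.64 and -1.31 against -2.14, -2.07 and -2.53 did not overlap, a log2 change of -0.74 ± 0.29. Syt2, a calcium sensor of fast release, had levels of -2.38, -2.19 and -2.13 against -3.36, -3.02 and -2.88, a log2 change of -0.86 ± 0.28 (SE, adjusted p = 0.49).

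Several other lists lay near the median of all features. Median log2 changes were -0.00673 for the 13 genes of both spiny neuron classes, -0.00785 for 14 interneuron genes, 0.0016 for 14 oligodendrocyte genes and 0.0144 for 13 MHC class I genes. In the oligodendrocyte list Mag, a myelin glycoprotein, had a value of -2.0 ± 1.5 that came from lesioned array 1, with levels of 4.53, 3.89 and 3.87 against -2.59, 4.33 and 4.54. A further Mag probe gave -0.05. Of 12 stress genes 1 was lower at an unadjusted p under 0.05, against 2.19% of all features. This was Creld2, a chaperone of the endoplasmic reticulum, with a value of -0.49 ± 0.15 that was -0.00525 with normexp.

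Leaving out non-lesioned array 3 gave 13 features that passed at an adjusted p under 0.05, all higher on the lesioned side, of which 3 had a symbol. Arl6ip5, an endoplasmic reticulum protein that regulates glutamate transport, had levels of -3.07, -2.93 and -0.94 on the non-lesioned arrays against -1.09, -1.12 and -1.15 on the lesioned arrays. Non-lesioned array 3 lay above all lesioned arrays, and the log2 change of 1.19 ± 0.45 became 1.88 without it (adjusted p = 0.000839). Tmem65, a mitochondrial membrane protein, had levels of -4.57, -4.96 and -2.66 against -2.12, -2.41 and -2.06, and its change of 1.87 ± 0.47 became 2.57 (adjusted p = 0.00153). Cbln3 was the third, at 1.90 (adjusted p = 0.0172). Leaving out non-lesioned array 2 or lesioned array 1 gave 1 passing feature each, without a symbol, and leaving out any of the other 3 arrays gave 0.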

How the data were processed

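Total RNA of striatum was hybridised to single-colour Agilent arrays, 1 array per sample. Per the file headers, the authors' deposited intensity values are processed signals from Agilent Feature Extraction 10.7.3.1 (10.7 in the submitters' processing notes), background-subtracted and detrended within each array and not scaled between arrays. The deposited value table held the same intensity values for all 62976 spots of each array, to a relative tolerance of 1e-06.

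From these, control and outlier spots were left out, spots of a probe were averaged, and log2 signals were taken relative to the 75th percentile of each array. Of 30367 probes 17328 matched 1 gene symbol through RefSeq and 13039 none. Probes well above background on all 3 arrays of at least 1 of the 2 groups were kept (21138), and a gene was represented by its brightest probe. This left 19109 features, 55 of them with an array missing. No spot was saturated. limma 3.58.1 in R 4.3.3 (data.table version 1.17.8) was fitted to all 12 arrays with 4 groups and 8 residual degrees of freedom, two-sided, with Benjamini-Hochberg adjustment and a threshold of 0.05. The fit was tested on simulated data. No exact permutation test is printed, because with 3 arrays a side its smallest two-sided p is 0.1. The number of arrays limits the precision. Where no array of the dimmer group was well above background, the fold is a lower bound against the higher of its signal and the lowest signal above background on each array.

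Genes were named by rule: the 15 smallest p, the 12 largest values in each direction among genes without overlap at an unadjusted p under 0.05, up to 4 members of each list by p and any member of the pathway, dopamine, peptide and activin lists, and genes that passed when 1 array was left out. Of the 15 genes, 1 is not reported here. The members, gene lists and rule were chosen with earlier results of these data known. Scaling, background correction, filter, probe choice, slide, array weights, replicate number, the Ttr level and each array were varied in turn.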

Additional observations from a re-analysis of the deposited data

How the results depend on the processing

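No feature passed in any of the 13 alternatives fitted with all 6 arrays, and 0 to 13 passed when 1 array was left out. With slide as a fixed block, non-lesioned array 3 and lesioned array 3 were each alone on a slide and added nothing to the group difference. Values with that block therefore differ from the main ones in the arrays used as well as in the slide term. The number at an unadjusted p under 0.05 was 1252 to 1880 in 12 of those 13 alternatives, 1002 with slide as a fixed block, and 804 to 2331 with 1 array left out, the lowest without lesioned array 3 and the highest without non-lesioned array 1. With the replicate number as a block 1781 features had an unadjusted p under 0.05 and 0 passed. The deviations of same-numbered arrays correlated at 0.0683, -0.0708 and -0.128, and those of differently numbered arrays at -0.0993 to 0.173. Each deviation is taken from a mean of only 3 arrays, so these values cannot decide whether equal numbers mark the same rat. Under normexp with quantile normalization 36.7% of the features at an unadjusted p under 0.05 were higher, and under quantile normalization 40.6%, against 74.6%.

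The sign turned in at least 1 alternative for 12 of the 105 genes followed. With slide as a block the log2 changes were -0.24 for Adora2a, 0.576 for Aqp1, -0.435 for C1qc, -0.0539 for Drd2, -0.634 for Gfap, 0.0854 for Kcne2, 0.43 for Sostdc1 and -0.114 for Zfp521. With normexp they were -0.0657 for Adora2a, -0.00266 for Drd2, -0.0413 for Gfap, -0.113 for Slc18a2, -0.0887 for Zfp521 and -0.0222 for C1qc. With the Ttr level as a covariate they were -0.0178 for Adora2a, 0.167 for Sfxn1 and -0.000362 for Zfp521, C1qc was at -0.068 under quantile normalization and -0.052 with array weights, and Phf8 was at -0.211 when all 6 arrays had to be above background. With 1 array left out the ranges were -0.0512 to 0.254 for Adora2a, -3.10 to 0.208 for Aqp1, -0.193 to 0.259 for C1qc, -0.0315 to 0.349 for Drd2, -0.287 to 0.728 for Gfap, -3.22 to 0.338 for Mag, -0.249 to 5.05 for Phf8, -0.48 to 0.221 for Sfxn1 and -4.11 to 0.0591 for Sostdc1. The cause was not tested.

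In the main fit 0 of 19109 features passed at a limma adjusted p under 0.05. With 3 arrays per group, 1 shared slide and a replicate-spot CV that differed between the groups, no single difference was therefore resolved. This holds for large and small differences and for bright and dim probes.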
